A study of Mus musculus with 20 samples.

Results

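Lyz1, Lyz2, C1qa, C1qb, C1qc, Tyrobp, Ctss, Laptm5, Csf1r and Fcer1g are 10 genes associated with macrophages and with lysozyme, measured here on Affymetrix expression arrays of mouse stem cells, fibroblasts and neural cells. They make up 10 of the 18193 genes with a usable probe set, and 20 of the 45037 probe sets on the array that are not controls carry their symbols. The set was put together knowing how its levels differ between these same arrays, so the levels and differences of the 10 genes are given as a description. Where the 10 genes are counted against the threshold used for genes outside the set, the count describes them and tests nothing.

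Macrophages are phagocytes that clear dying cells and microbes. They secrete lysozyme, an enzyme that cuts bacterial cell walls, and C1q, the recognition molecule of the classical complement pathway, which is assembled from A, B and C chains. Their survival depends on the receptor CSF1R, and many of their surface receptors signal through small adaptors that carry an immunoreceptor tyrosine-based activation motif, an ITAM, such as DAP12, the product of Tyrobp, and the Fc receptor gamma chain, the product of Fcer1g. Resident macrophages lie in the testis and in most embryonic tissues.

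The 20 arrays fell into 6 groups, and no label calls any of them a macrophage. Germline stem cells (GSC, 3 arrays) came from testes of OG2 mice, an Oct4-GFP transgenic strain (B6;CBA-Tg[Pou5f1-EGFP]2Mnn/J), and grew on mitomycin C-inactivated mouse embryonic fibroblast feeders in StemPro-34 medium with GDNF, bFGF, EGF and LIF. Germline pluripotent stem cells (gPS, 5 arrays) arose from such OG2 germline stem cells, as colonies within 3 to 4 weeks of plating about 1000 cells per well on feeders, and were expanded on feeders in embryonic stem cell medium. Embryonic stem cells (ESC, 3 arrays) were the RW4 line, and the ESC-like cells (ESC_like, 3 arrays) came from testis between postnatal days 0 and 2, were supplied by another laboratory and have no strain label. ESC and ESC_like cells both grew on feeders with LIF. Neural stem cells (NSC, 3 arrays) were derived from Olig2-GFP embryonic stem cells, and the mouse embryonic fibroblasts (MEF, 3 arrays) came from C3H embryos at E12.5. The labels do not say whether arrays of a group were separate cultures, so each p-value measures the spread between these arrays, which may be technical. Strain, laboratory and medium differed between groups along with cell type and cannot be told apart from it.

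Levels are log2 intensities, on which a difference of 1 is a 2-fold change, and the median of all values was 4.98. The array medians lay between 4.95 and 5.04, and arrays of the same group correlated at 0.978 to 0.997 over all probe sets. No detection call was used, so a level around or below that median may be background. The number of arrays limits the precision. The labels were checked on defining genes. Pou5f1, the pluripotency factor, averaged 12.35 in ESC and 3.12 in MEF, and Dazl, a germ cell gene, averaged 12.21 in GSC. Olig2 averaged 11.59 in NSC, and Col1a1, a collagen of fibroblasts, averaged 11.99 in MEF. In bulk samples, fewer cells of a type and less RNA per cell cannot be told apart.

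By the brightest probe set of each of the 10 genes, that with the highest mean over the 20 arrays, group means differed most for the lysozyme genes. Mice carry neighbouring copies, Lyz2, the lysozyme of macrophages and neutrophils, and Lyz1, the lysozyme of Paneth cells in the gut. Lyz2 (probe set 1423547_at) read 11.03, 10.91 and 10.93 in the GSC arrays, 9.80, 9.98 and 10.06 in ESC_like and 8.43, 8.35 and 8.21 in MEF. It read 5.22, 4.35 and 4.82 in ESC, 5.28, 4.27 and 5.38 in NSC, and 5.59, 8.78, 5.20, 5.59 and 6.60 in gPS replicates 1 to 5. GSC, ESC_like and MEF thus followed each other downwards with no overlap, ESC and NSC overlapped each other at the bottom, and gPS spread from the ESC range to above the MEF range. The Lyz2 mean in GSC was 71.4-fold that in ESC (log2 difference 6.16, SE 0.57), and in ESC_like 35.5-fold (5.15, SE 0.57). In MEF it was 11.6-fold that in ESC (3.53, SE 0.57).

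Lyz1 was read by 3 probe sets that disagreed. The brightest, 1436996_x_at, read 12.14, 12.12 and 12.16 in GSC, 10.76, 11.01 and 10.96 in ESC_like, and 9.31, 9.23 and 9.01 in MEF. In gPS it read 6.37, 10.09, 5.41, 6.01 and 7.17, and it lay between 3.21 and 4.28 in all ESC and NSC arrays. It thus placed GSC, ESC_like, MEF and gPS in the order of Lyz2, and so did 1439426_x_at by its group means, at 10.54 in GSC, 9.35 in ESC_like, 7.59 in MEF and 5.72 in gPS. Both carry the suffix x, which Affymetrix gives to probe sets whose probes can bind other transcripts as well. The third, 1450822_at, carries no such suffix and stayed between 3.29 and 4.05 on all 20 arrays. Its GSC minus ESC difference was 0.20 (SE 0.15), against 8.49 (SE 0.70) for the brightest probe set. Lyz1 and Lyz2 are copies of one ancestral gene, so the signal under the name Lyz1 is uncertain; whether it holds Lyz2 transcripts was not tested.

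The copies lie next to each other on chromosome 10 with no other coding gene between them, and their promoters are shown to compare the copies. The RefSeq annotation on build GRCm38.p6 gives the 250 bases before the start of Lyz2 as chr10:117282273-117282522 on the minus strand, and those of Lyz1 as chr10:117292869-117293118 on the minus strand. Capitals mark the longest run that both share, the last 50 bases before the start.
Lyz2: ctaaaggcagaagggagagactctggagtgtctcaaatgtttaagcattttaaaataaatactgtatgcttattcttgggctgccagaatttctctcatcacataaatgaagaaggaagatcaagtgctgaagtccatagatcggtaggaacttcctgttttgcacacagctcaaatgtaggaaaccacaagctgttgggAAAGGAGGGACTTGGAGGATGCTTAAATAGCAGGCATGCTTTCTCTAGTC
Lyz1: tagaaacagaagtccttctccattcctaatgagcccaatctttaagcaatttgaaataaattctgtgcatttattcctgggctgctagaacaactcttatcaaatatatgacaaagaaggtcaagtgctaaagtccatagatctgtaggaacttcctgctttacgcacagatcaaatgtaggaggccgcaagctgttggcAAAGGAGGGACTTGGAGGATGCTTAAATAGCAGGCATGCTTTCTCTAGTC
Aligned end to end, the 250-base windows shared 205 identical bases, with 35 mismatches and 20 gap positions, an identity of 78.85%.

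**Figure D1:**
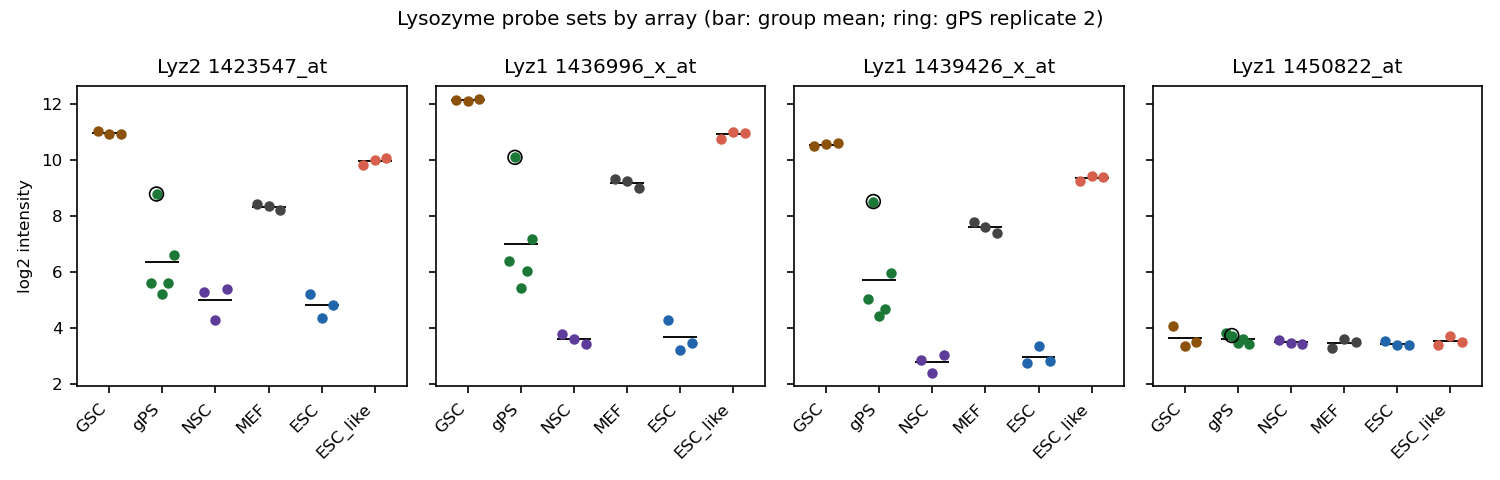
Log2 intensity of the Lyz2 probe set and of the 3 Lyz1 probe sets on each of the 20 arrays, by group; bars are group means and the ring marks gPS replicate 2. Lyz2 and the 2 Lyz1 probe sets with the suffix x place GSC, ESC_like and MEF in descending order, and Lyz1 1450822_at stays between 3.29 and 4.05 throughout.

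By their brightest probe sets, the 3 C1q chain genes had group means in the same order from GSC through ESC_like and MEF to gPS, with ESC and NSC lowest, over a smaller range. C1qb (1417063_at), the B chain, read 7.46, 7.18 and 7.53 in GSC, 5.71, 5.79 and 6.34 in ESC_like, and 5.13, 4.61 and 4.30 in MEF. It read 3.82, 5.33, 3.79, 3.89 and 4.06 in gPS and stayed between 3.58 and 4.06 in ESC and NSC. Only GSC and ESC_like stood wholly above the median of all values, and 1 gPS array lay above all MEF arrays. The C1qb mean in GSC was 11.4-fold that in ESC (3.51, SE 0.30) and 2.71-fold that in ESC_like (1.44, SE 0.30). Its other probe sets, 1437726_x_at and 1434366_x_at, gave GSC minus ESC differences of 3.43 (SE 0.32) and 1.25 (SE 0.16). Their ESC_like minus ESC differences were 0.76 (SE 0.32) and 0.31 (SE 0.16), against 2.07 (SE 0.30) for the brightest. By 1434366_x_at the gPS mean (3.98) lay above those of ESC_like (3.88) and MEF (3.86), with overlapping ranges.

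C1qa (1417381_at), the A chain, read 6.09, 6.45 and 6.69 in GSC, 5.83, 5.46 and 6.05 in ESC_like and 5.27, 5.10 and 4.81 in MEF. In gPS it read 4.27, 5.39, 4.53, 3.95 and 4.09, and it stayed between 3.53 and 4.15 in ESC and NSC. GSC and ESC_like did not overlap, but the lowest GSC array was only just above the highest ESC_like array. C1qc (1449401_at), the C chain, read 6.41, 6.56 and 6.70 in GSC, 5.59, 5.40 and 5.78 in ESC_like and 4.82, 5.16 and 4.81 in MEF. In gPS it read 4.33, 5.35, 4.37, 3.94 and 4.59, with ESC and NSC arrays between 3.96 and 4.50. The GSC minus ESC differences were 2.55 (SE 0.27) for C1qa and 2.37 (SE 0.24) for C1qc, or 5.86-fold and 5.16-fold. The MEF minus ESC differences of the 3 chains were smaller, at 1.20 (SE 0.27) for C1qa, 0.81 (SE 0.30) for C1qb and 0.74 (SE 0.24) for C1qc.

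The C1q genes lie in the order C1qb, C1qc and C1qa along chromosome 4, with no other coding gene between them. The promoters of C1qb and C1qc are shown because they sit in this cluster and their genes varied together over the arrays, with GAGGAA, the core letters bound by the macrophage factor PU.1, in capitals where a search of both strands found it (TTCCTC on the opposite strand). In build GRCm38.p6 of RefSeq, the C1qb window is chr4:136886201-136886450 on the minus strand and the C1qc window chr4:136892915-136893164 on the minus strand.
C1qb: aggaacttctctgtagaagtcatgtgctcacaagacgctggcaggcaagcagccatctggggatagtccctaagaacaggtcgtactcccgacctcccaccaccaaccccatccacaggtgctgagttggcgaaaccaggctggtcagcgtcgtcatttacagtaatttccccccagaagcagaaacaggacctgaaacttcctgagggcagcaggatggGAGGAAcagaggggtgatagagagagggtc
C1qc: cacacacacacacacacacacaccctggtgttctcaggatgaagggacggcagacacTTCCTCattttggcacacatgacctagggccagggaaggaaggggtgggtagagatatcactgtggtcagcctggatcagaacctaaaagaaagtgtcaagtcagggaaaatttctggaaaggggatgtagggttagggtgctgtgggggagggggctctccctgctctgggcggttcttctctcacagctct
The match lies 30 bases before the start of C1qb and 193 bases before that of C1qc. Promoters of 7 members were searched. C1qa and Tyrobp had no usable entry, and Csf1r was left out of the search, so the count does not cover the whole set. The promoters of all genes were not trimmed in this way. Of the 7, 4 held the motif (C1qb, C1qc, Ctss and Laptm5), and of 32851 promoters of the same length 23.25% did. A match of 6 letters describes the sequence and shows no binding.

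The ITAM adaptor genes had smaller ranges, with group means around or above the median of all values in GSC, ESC_like and MEF. Tyrobp (1450792_at) read 6.23, 6.01 and 6.47 in GSC, 5.88, 5.80 and 6.22 in ESC_like and 5.36, 5.36 and 5.29 in MEF. It read 4.49, 5.52, 3.79, 4.44 and 4.61 in gPS, 4.66, 3.89 and 4.94 in ESC and 4.74, 4.32 and 3.85 in NSC. GSC and ESC_like overlapped, and both lay above all MEF arrays. The Tyrobp mean was 3.34-fold higher in GSC than in ESC (1.74, SE 0.31) and 2.77-fold higher in ESC_like (1.47, SE 0.31).

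Fcer1g (1418340_at) read 5.35, 6.14 and 6.03 in GSC, 5.53, 5.68 and 6.05 in ESC_like and 5.51, 5.91 and 5.49 in MEF, and these groups overlapped. It read 5.33, 5.43, 4.69, 4.74 and 4.87 in gPS, 5.25, 4.65 and 5.50 in ESC and 4.76, 4.97 and 5.06 in NSC. Its GSC minus ESC difference was 0.71 (SE 0.24), and the GSC and ESC ranges overlapped. Of the 16 genes listed as partners of these adaptors, such as receptors and the kinase Syk, 1 (6.25%, against 13.1% of all genes) was higher in GSC than in ESC past the test used for genes outside the set (limma, adjusted p under 0.05 and at least 2-fold). That gene was Fcgr3, an IgG receptor that uses the gamma chain (log2 difference 1.93, SE 0.17, limma adjusted p = 3.7e-09).

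Ctss encodes cathepsin S, a lysosomal protease that trims the invariant chain in antigen-presenting cells. Ctss (1448591_at) read 6.92, 6.99 and 7.13 in GSC, 6.20, 7.46 and 6.67 in ESC_like and 7.17, 7.10 and 7.02 in MEF. It read 3.59, 6.17, 3.90, 4.96 and 4.50 in gPS and between 3.21 and 3.88 in ESC and NSC. Unlike the lysozyme and C1q genes, Ctss was as high in MEF as in GSC, with overlapping ranges and a GSC minus MEF difference of -0.09 (SE 0.43, 95% interval -0.98 to 0.80). The MEF mean was 10.3-fold that of ESC (3.37, SE 0.43). The promoter is shown because it holds the GAGGAA match in a gene whose order of groups differs from that of C1qb and C1qc; it is chr3:95526536-95526785 on the plus strand in GRCm38.p6 of RefSeq, with the match 164 bases before the start.
Ctss: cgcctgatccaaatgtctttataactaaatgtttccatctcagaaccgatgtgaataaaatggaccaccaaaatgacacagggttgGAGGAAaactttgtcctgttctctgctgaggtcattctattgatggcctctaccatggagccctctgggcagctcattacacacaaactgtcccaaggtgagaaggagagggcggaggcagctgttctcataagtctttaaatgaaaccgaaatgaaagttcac
The neighbouring gene Ctsk, which encodes the lysosomal protease cathepsin K of osteoclasts and fibroblasts, averaged 8.66 in MEF, 6.29 in ESC_like, 5.24 in GSC and 4.70 in ESC. Over the 20 arrays, which share these 6 groups, Ctss and Ctsk correlated at 0.70. Ctss and Hormad1, its neighbour on the other side, correlated at 0.45.

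Laptm5, a lysosomal membrane protein of blood cells, went against the rest of the set. Its brightest probe set, 1436905_x_at, read 8.85, 9.23 and 9.09 in ESC, 8.23, 8.45 and 7.86 in ESC_like and 9.42, 8.60, 7.54, 7.74 and 7.43 in gPS. It read 6.87, 6.90 and 6.77 in GSC, 5.85, 5.59 and 5.62 in MEF and 3.43, 3.57 and 3.48 in NSC. ESC had the highest mean and lay wholly above ESC_like, GSC, MEF and NSC, whereas it was among the lowest groups for lysozyme. The GSC minus ESC difference was -2.21 (SE 0.34) and the MEF minus ESC difference -3.37 (SE 0.34). Of its other probe sets, 1426025_s_at had a smaller range, with group means from 5.52 in NSC to 6.96 in gPS and a MEF minus ESC difference of -1.18 (SE 0.21). The group means of 1417721_s_at lay between 5.52 and 6.05, those of 1447742_at between 5.34 and 6.05 with MEF highest, and those of 1459841_x_at between 2.56 and 3.19. The size of the Laptm5 signal in ESC thus rested on a probe set with the suffix x. MEF also lay under ESC by 1426025_s_at, and by 1459841_x_at (-0.63, SE 0.20) and 1417721_s_at (-0.42, SE 0.18), by less. The only probe set without a shared suffix, 1447742_at, gave a MEF minus ESC difference of 0.13 (SE 0.19).

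**Figure D2:**
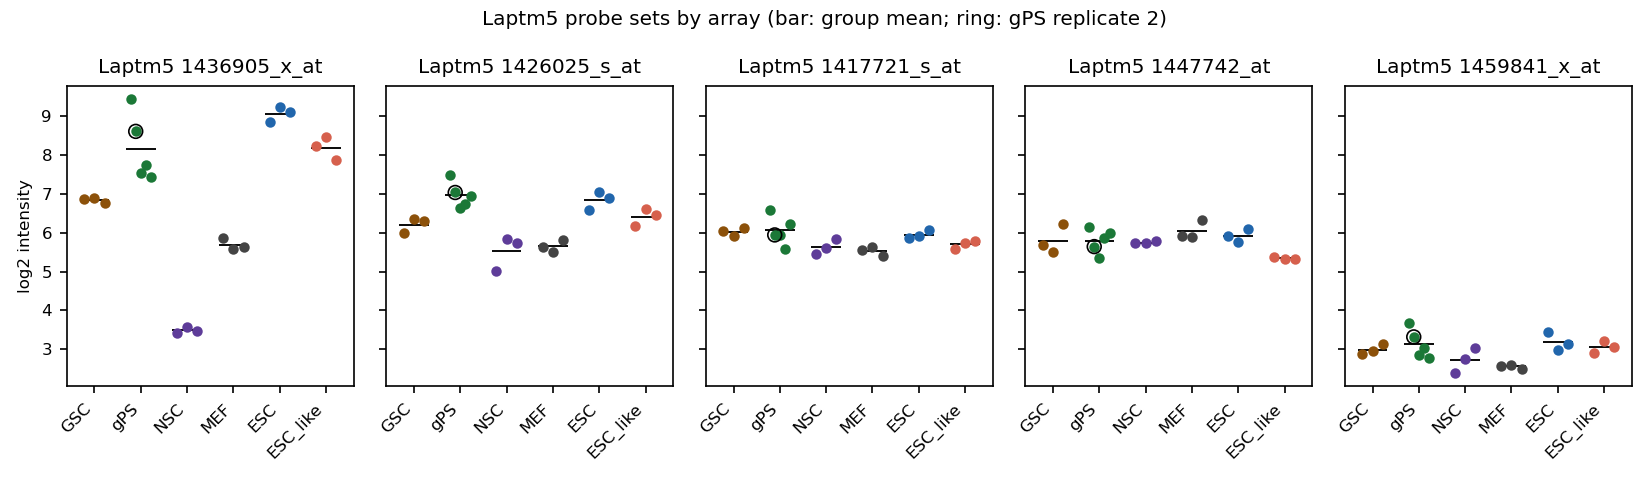
Log2 intensity of the 5 Laptm5 probe sets on each array, by group, on a common axis; bars are group means and the ring marks gPS replicate 2. Group means of 1436905_x_at run from 3.49 in NSC to 9.06 in ESC, and those of 1417721_s_at, 1447742_at and 1459841_x_at each stay within less than 1 log2 unit.

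Csf1r, the receptor through which macrophages take up their survival signal, was highest in MEF. Its brightest probe set, 1419872_at, read 7.73, 7.43 and 7.48 in MEF, 6.32, 6.83 and 6.30 in ESC_like and 6.17, 6.65 and 6.21 in GSC. It read 5.89, 6.01 and 6.14 in ESC, 5.79, 5.93 and 5.64 in NSC and 5.99, 6.07, 5.54, 6.13 and 5.57 in gPS. MEF stood apart from every other group, and GSC lay just above ESC without overlap. The MEF minus ESC difference was 1.53 (SE 0.18) and the GSC minus ESC difference 0.33 (SE 0.18). A second probe set, 1419873_s_at, was also highest in MEF (mean 6.25, MEF minus ESC 0.46, SE 0.14). The third, 1423593_a_at, had group means between 5.84 and 6.19, with MEF inside the range of the others (-0.08, SE 0.14). Their GSC minus ESC differences were -0.15 (SE 0.14) and 0.05 (SE 0.14), so neither showed GSC clearly above ESC. Pdgfrb, the gene next to Csf1r, encodes a receptor for platelet-derived growth factor on fibroblasts. It averaged 7.37 in MEF and between 4.65 and 5.46 in the other groups, and correlated with Csf1r at 0.87 over the 20 arrays. Hmgxb3, on the other side of Csf1r, correlated with it at -0.13. For members other than Csf1r and Ctss, the neighbours compared from outside the set correlated at -0.28 (Apoa2 with Fcer1g) to 0.39 (Matn1 with Laptm5).

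Csf1, the ligand of that receptor, was high in MEF as well, at 11.50 against 5.33 in ESC (log2 difference 6.17, SE 0.17, limma adjusted p = 4.1e-17). Csf1 averaged 7.66 in ESC_like (2.33, SE 0.17, limma adjusted p = 2.0e-09 against ESC) and 6.65 in gPS (1.32, SE 0.15, limma adjusted p = 2.2e-06 against ESC). Among the 19 measured genes of the CSF1 pathway and its myeloid regulators, 3 were higher (15.8%, against 13.1% of all genes) and 1 lower (5.26%, against 10.2%) in GSC than in ESC. Higher were Irf8, a macrophage transcription factor (5.73 against 4.46, limma adjusted p = 3.4e-06), Maf (limma adjusted p = 0.00031) and the kinase gene Fyn, and lower was Inpp5d, a phosphatase gene of blood cells (-1.70, SE 0.22). In ESC_like 5 of the 19 were higher than in ESC (26.3%, against 5.11% of all genes) and none lower, Cebpb (2.31, SE 0.24) and Inpp5d (2.13, SE 0.22) among them. Inpp5d thus went opposite ways against ESC in GSC and in ESC_like.

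**Figure D3:**
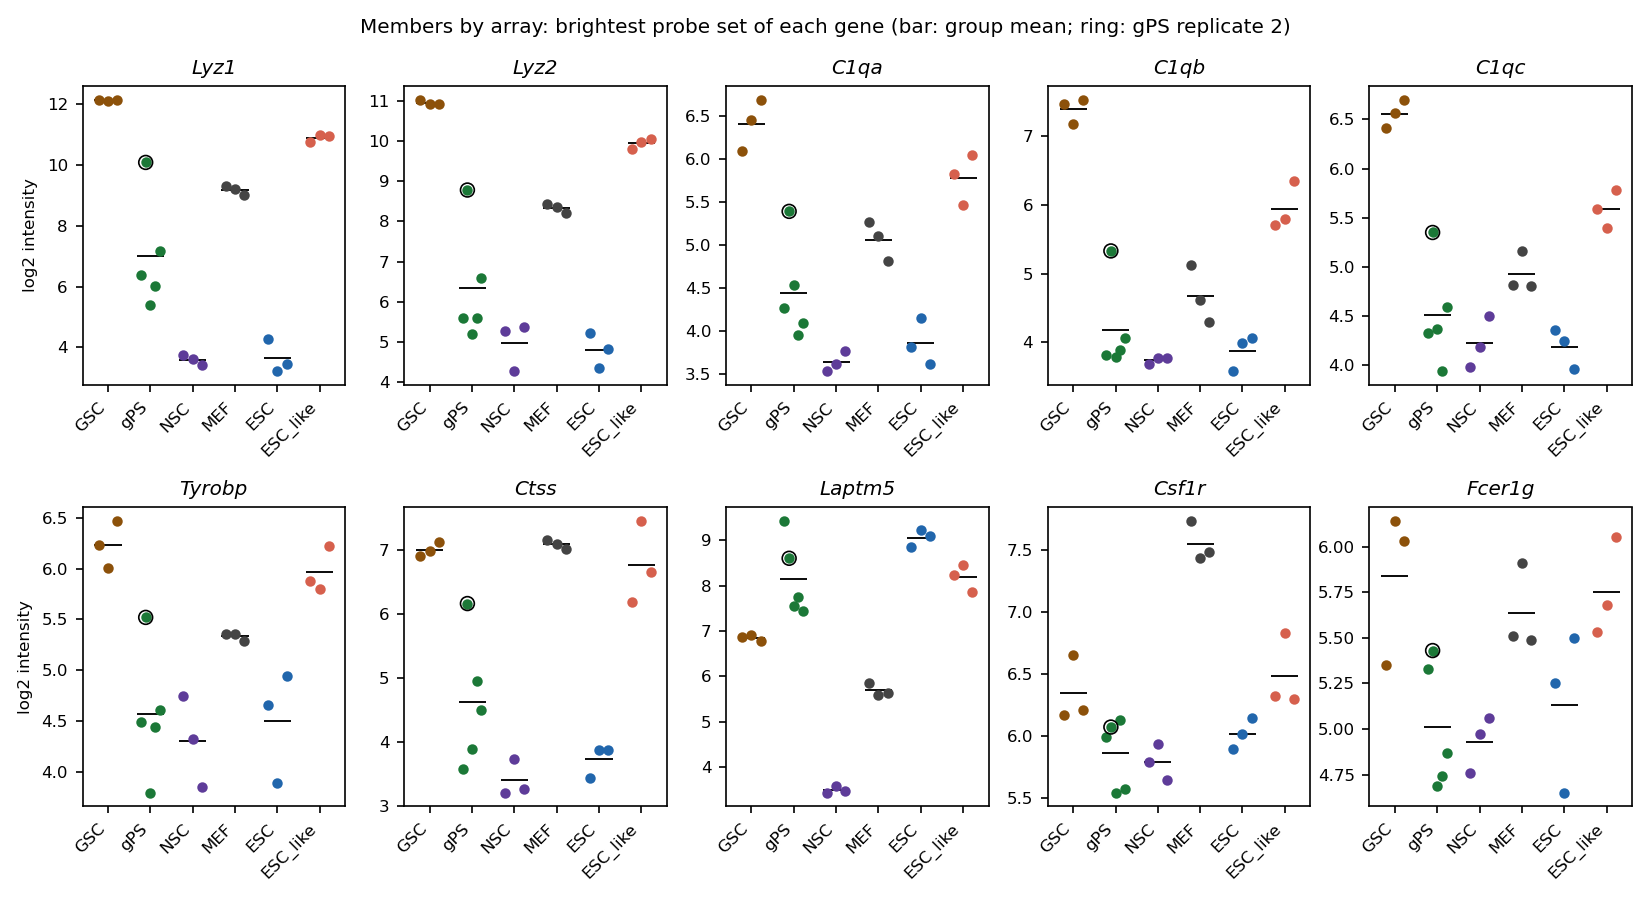
Log2 intensity of the brightest probe set of each of the 10 genes on all 20 arrays, by group; bars are group means, the ring marks gPS replicate 2, and each panel has its own axis. GSC and ESC_like lead for lysozyme, C1q and Tyrobp, MEF leads for Csf1r, and ESC leads for Laptm5.

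Set side by side by comparison, the 10 genes gave the following counts, which are no test of them. A gene passed at an adjusted p under 0.05 and at least 2-fold, and groups were apart where no array of one overlapped the other; groups are shared between comparisons, so the counts are not independent of each other. In GSC against ESC, 7 of the 10 passed as higher (13.1% of all genes did) and 1, Laptm5, as lower (10.2%). GSC lay wholly above ESC for 8 of them (30.9% of all genes) and wholly below for Laptm5 (26.5%). In ESC_like against ESC the 7 genes Lyz1, Lyz2, C1qa, C1qb, C1qc, Tyrobp and Ctss passed as higher (5.11% of all genes) and none as lower (2.10%), with 9 wholly above (23.2%) and Laptm5 wholly below (31.0%). In MEF against ESC 6 of the 10 passed in either direction (23.4% of all genes), with Lyz1, Lyz2, C1qa, Ctss and Csf1r higher and Laptm5 lower in MEF. MEF lay wholly above ESC for 8 (27.2% of all genes) and wholly below for Laptm5 (36.2%). The median difference of the 10 genes was 2.46 in GSC, 1.69 in ESC_like and 1.02 in MEF, and that of all genes was 0.00, -0.09 and -0.10. Nothing is read from these counts, since the genes were chosen on such differences.

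GSC also lay above MEF in most of the set. Against MEF, 6 of the 10 passed as higher (15.5% of all genes) and Csf1r as lower (12.9%), with 7 wholly above (36.1%) and Csf1r wholly below (27.5%). Lyz1 differed by 2.95 (SE 0.70), C1qb by 2.71 (SE 0.30) and Lyz2 by 2.63 (SE 0.57). Against ESC_like, C1qb alone passed as higher (11.4% of all genes) and Laptm5 as lower (11.2%), with 5 wholly above (35.5%) and Laptm5 wholly below (26.5%). Lyz1 (GSC minus ESC_like 1.23, SE 0.70) and Lyz2 (1.01, SE 0.57) lay wholly above but did not pass. Each SE pools the spread of all 6 groups, and the standard deviation of Lyz2 was 0.07 in GSC, 0.13 in ESC_like and 1.45 in gPS. MEF lay above NSC with no overlap for all 10 genes (27.4% of all genes) and below for none (30.0%), and 7 passed as higher (8.84%) and none as lower (8.13%). In that comparison the differences ran from 0.71 for Fcer1g and C1qc to 5.60 for Lyz1.

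Between the germline stem cells and the pluripotent cells derived from them, most of the set was lower in gPS. In gPS minus GSC, 7 of the 10 passed as lower (10.9% of all genes) and Laptm5 as higher (9.10%), with 8 wholly below (22.3%) and Laptm5 wholly above (19.2%). The median was -2.00, against 0.02 for all genes. Lyz1 differed by -5.13 (SE 0.62), Lyz2 by -4.60 (SE 0.51), C1qb by -3.21 (SE 0.27) and Ctss by -2.39 (SE 0.38). C1qc, C1qa and Tyrobp differed by -2.04 (SE 0.21), -1.96 (SE 0.24) and -1.67 (SE 0.28). The Laptm5 difference was 1.30 (SE 0.30) and came to 0.98 without gPS replicate 1, under 2-fold. Against ESC_like, 7 of the 10 passed as lower in gPS (3.74% of all genes) and none as higher (1.11%), with 9 wholly below (13.4%) and none wholly above (15.6%). In MEF against gPS, 5 of the 10 passed in either direction (23.2% of all genes), Lyz1, Lyz2, Ctss and Csf1r as higher in MEF and Laptm5 as lower, with 3 wholly above (21.7%) and Laptm5 wholly below (27.8%).

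Against ESC, Lyz1 and Lyz2 passed as higher in gPS (2.36% of all genes) and none of the 10 as lower (2.13%), a count that again only describes genes chosen on such levels. The Lyz1 difference was 3.36 (SE 0.62) and the Lyz2 difference 1.56 (SE 0.51). Both shrank when gPS replicate 2 was left out, to 2.59 (SE 0.28) and 0.95 (SE 0.27), so Lyz2 then missed 2-fold. These are values of the brightest probe sets. The Lyz1 probe set without a shared suffix, 1450822_at, gave a gPS minus ESC difference of 0.17 (SE 0.14). Ctss differed by 0.89 (SE 0.38), and by 1.15 without gPS replicate 1 and 0.50 without gPS replicate 2. Laptm5 differed by -0.91 (SE 0.30), and past 2-fold by -1.23 and -1.02 without gPS replicate 1 or 2. Csf1r and Fcer1g differed by -0.15 (SE 0.16) and -0.12 (SE 0.21).

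For the lysozyme and C1q genes, Tyrobp and Ctss, though not for Laptm5 or Csf1r, the gPS spread came mostly from replicate 2. It was the highest of the 5 gPS arrays for 8 of the 10 genes, or 80% of them, against 20.1% of all 18193 genes. Its Lyz1 level was 14.4-fold the mean of the other 4 arrays (Lyz1 1436996_x_at, 10.09 against 6.24), its Lyz2 level 8.19-fold and its Ctss level 3.81-fold. For C1qb, Tyrobp, C1qa and C1qc it was 2.71-fold, 2.28-fold, 2.26-fold and 2.07-fold the mean of the others. The same array was the highest for 15 of 17 fibroblast genes (88.2%) and for 13 of 31 other macrophage genes (41.9%), and the part of either in the result was not tested. The other 4 gPS arrays still lay above every ESC array for Lyz1 1436996_x_at, at 5.41 to 7.17 against 3.21 to 4.28. By 1450822_at, which has no shared suffix, gPS (3.42 to 3.81) and ESC (3.37 to 3.52) overlapped.

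Feeder cells were used in 4 of the cultures, so the levels were also placed on a scale set by ESC and MEF. On it the ESC mean is 0% and the MEF mean 100% of the linear intensity. Whether the MEF arrays match the feeders of each culture was not established. This was done for the 5 members that passed as higher in MEF than in ESC (Lyz1, Lyz2, C1qa, Ctss and Csf1r) and for the 17 of 18 fibroblast genes measured, which all passed. In the GSC arrays the median share was 283%, 385% and 466% over the 5 members, and 6.44%, 3.11% and 3.44% over the fibroblast genes. In ESC_like it was 222%, 154% and 271% over the members, and 13.2%, 18.3% and 18.0% over the fibroblast genes. With an intensity of 0 in place of the ESC mean as 0%, the GSC medians were 203%, 261% and 306% over the members and 9.39%, 8.41% and 8.83% over the fibroblast genes. On every array of both groups, and on either scale, the median over the members stood above the MEF level, and that over the fibroblast genes far under it. The 5 members were picked on levels in these same arrays, and Lyz1 and Lyz2 may share signal, so this describes them and tests nothing. The 4 other macrophage genes that passed as higher in MEF, Cd14, Cd53, Fcgr3 and Arhgdib, had medians of 49.9% to 96.5% in GSC and 63.9% to 85.3% in ESC_like. The single genes lay far apart, from -4.65% to 248% over the GSC arrays.

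Within the 5 members the shares differed. Lyz1 and Lyz2 in GSC lay at 644% to 797% of the MEF level and C1qa at 283% to 466%, but Ctss at 87.1% to 102% and Csf1r at 5.78% to 29.0%. In gPS, replicate 2 had a median of 140% over the members and 14.9% over fibroblast genes (53.0% over the 4 other macrophage genes), and the other 4 arrays lay at 2.75% to 12.4% over members and 3.25% to 4.78% over fibroblast genes. With 0 as 0%, these 4 lay at 11.4% to 25.4% and 6.58% to 7.80%, and the ESC arrays at 10.7% to 11.6% and 1.64% to 2.05%. ESC arrays, also grown on feeders, lay between -2.11% and -0.122% over the members, close to 0 by construction. NSC arrays lay between -3.39% and -3.08%. How much of each level came from feeder cells was not tested.

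**Figure D4:**
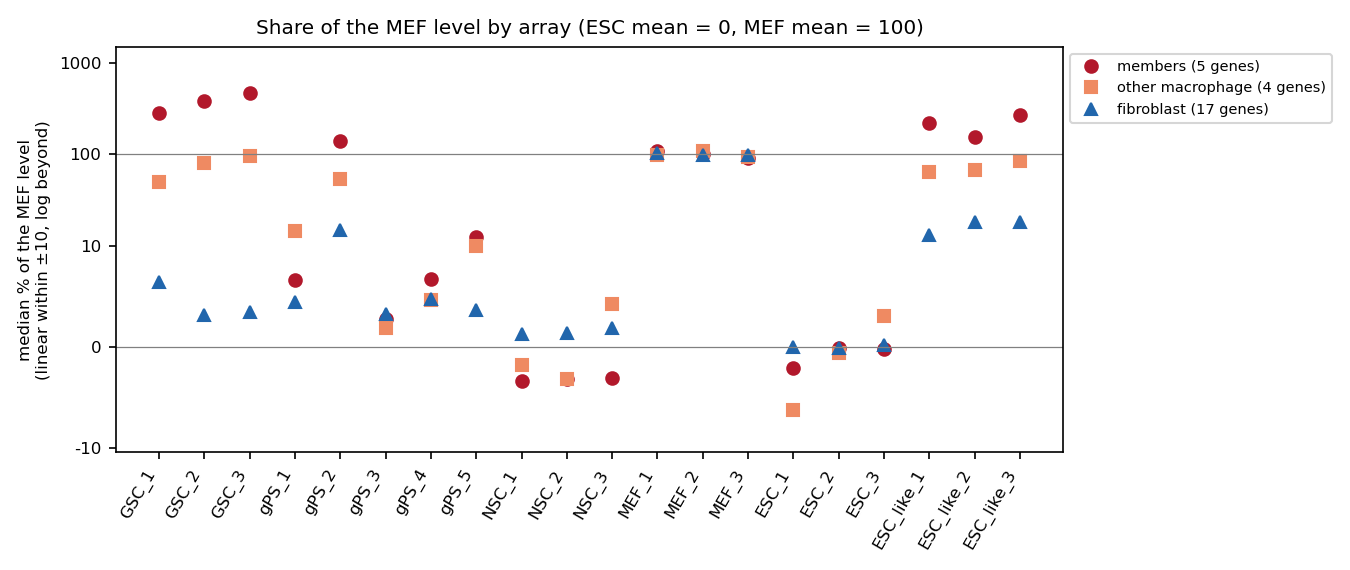
Median share of the MEF level on each array (ESC mean 0%, MEF mean 100%) for 5 of the 10 genes, 4 other macrophage genes and 17 fibroblast genes; the axis is linear within 10% of 0 and logarithmic beyond. The 5 genes sit at 283% to 466% in GSC and 154% to 271% in ESC_like, with fibroblast genes at 3.11% to 6.44% and 13.2% to 18.3%.

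Other macrophage genes gave a mixed picture. Of a list of 32 further macrophage genes, 31 were measured. In GSC against ESC, 4 of the 31 were higher (12.9%) and 1 lower (3.23%), close to the 13.1% and below the 10.2% of all genes, and the median difference was 0.18. The 4 were Ms4a7, a membrane protein of macrophages (2.18, SE 0.17, limma adjusted p = 8.8e-10), Cd53, a tetraspanin of white blood cells (2.03, SE 0.30, limma adjusted p = 6.1e-06), Fcgr3 and Mpeg1, the perforin of macrophages (1.69, SE 0.18, limma adjusted p = 1.1e-07). Cd68, a lysosomal glycoprotein often used to stain macrophages, was lower in GSC than in ESC (6.77 against 7.92, limma adjusted p = 3.7e-05). Fcgr1 and Aif1 were the genes nearest to no difference, at 0.06 (SE 0.13) and -0.02 (SE 0.15).

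Ms4a7 read 7.01, 7.07 and 6.81 in GSC, 5.84, 6.02 and 6.25 in ESC_like, 5.79, 5.65 and 5.52 in MEF and 4.66, 4.80 and 4.88 in ESC. It thus followed the order seen for lysozyme and C1q, and gPS replicate 2 was again the highest of its group, at 5.46 against 4.59 to 4.97. Cd53 read 5.19, 5.73 and 5.81 in GSC, 5.64, 5.86 and 5.69 in ESC_like, 4.89, 5.44 and 5.29 in MEF and 3.15, 3.42 and 4.08 in ESC. For Cd53, GSC overlapped both ESC_like and MEF. By group means, 3 of the 31 (Ms4a7, Mpeg1 and Fcgr3) ran from GSC through ESC_like and MEF down to the other groups, as 0.478% of all genes did. GSC, ESC_like and MEF all averaged above ESC and NSC for 12 of the 31 (38.7%, against 6.62% of all genes), Itgb2, Ptprc, Cybb and Adgre1 among them. These orders were counted after values were seen and were not tested. Itgb2 (CD18) averaged 4.21 in GSC, 4.39 in ESC_like, 4.17 in MEF, 3.82 in ESC and 3.59 in NSC. Several defining markers varied little or were dim. Itgam (CD11b) averaged between 3.27 and 3.59 in the 6 groups, Adgre1 (F4/80) between 5.17 and 5.80, Aif1 between 3.26 and 3.57, Cd163 between 2.72 and 3.22 and Spi1, which encodes PU.1, between 5.38 and 5.90. Ptprc, the white blood cell marker CD45, averaged 3.84 in GSC, 4.07 in ESC_like, 4.22 in MEF and 3.27 in ESC, all under the median of all values.

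In ESC_like against ESC, 8 of the 31 were higher (25.8%, against 5.11% of all genes) and 1 lower (3.23%, against 2.10%), with a median of -0.03. Cd53 (2.18, SE 0.30, limma adjusted p = 1.0e-05) and Arhgdib (1.89, SE 0.19, limma adjusted p = 2.3e-07) rose most, and Lcp1, Fcgr3 and Cd14 were among the others. Lcp1 spread widely within ESC_like, from 5.37 to 6.43 (limma adjusted p = 0.032). The gene that was lower was Mrc1, the mannose receptor (-1.29, SE 0.25, limma adjusted p = 0.00045). In MEF against ESC, 4 of the 31 were higher (12.9%) and 2 lower (6.45%). The 23.4% of all genes that passed there counts both directions, so neither share can be read against it alone. With arrays left out singly, 2224 to 2307 of the 18193 genes were higher in MEF than in ESC and 1939 to 2091 lower. Arhgdib at 10.57 against 7.04 (limma adjusted p = 1.9e-12) and Cd14 at 6.68 against 4.40 (limma adjusted p = 1.1e-07) were among the higher ones, and Cd68 and Coro1a were lower. Arhgdib, which fibroblasts also express, went the other way in GSC, where it averaged 6.40 (GSC minus MEF -4.17, SE 0.19, limma adjusted p = 1.1e-13). In MEF against NSC, 10 of the 31 were higher (32.3%, against 8.84% of all genes) and none lower (8.13% of all genes), with Arhgdib, Cd14, Cd68, Cd53, Fcgr3 and Mpeg1 in front.

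In gPS against GSC, 5 of the 31 fell (16.1%, against 10.9% of all genes), with Ms4a7 (-2.03, SE 0.15, limma adjusted p = 4.6e-10), Cd53 (-1.57, SE 0.27) and Mpeg1 (-1.46, SE 0.16) in front, and 2 rose (6.45%, against 9.10%), Arhgdib and Lcp1. In gPS against ESC, 2 rose (6.45%, against 2.36% of all genes), Lcp1 (1.27, SE 0.41, limma adjusted p = 0.027) and Fcgr3 (1.03, SE 0.15, limma adjusted p = 3.2e-05), and Cd68 alone fell (-1.34, SE 0.17; 2.13% of all genes did). Without ESC replicate 1 the count of these 3 dropped to 1. Lcp1 rested on gPS replicates 3, 4 and 5, at 6.48, 6.68 and 6.89, against 4.54 and 4.78 in replicates 1 and 2, so its spread was not that of the lysozyme genes. Against ESC_like, 4 of the 31 were lower in gPS (12.9%, against 3.74% of all genes), and 7 without gPS replicate 2. In GSC, 3 were higher and 2 lower than in MEF (9.68% and 6.45%, against 15.5% and 12.9% of all genes), and 1 was higher and 3 lower than in ESC_like (3.23% and 9.68%, against 11.4% and 11.2%).

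**Figure D5:**
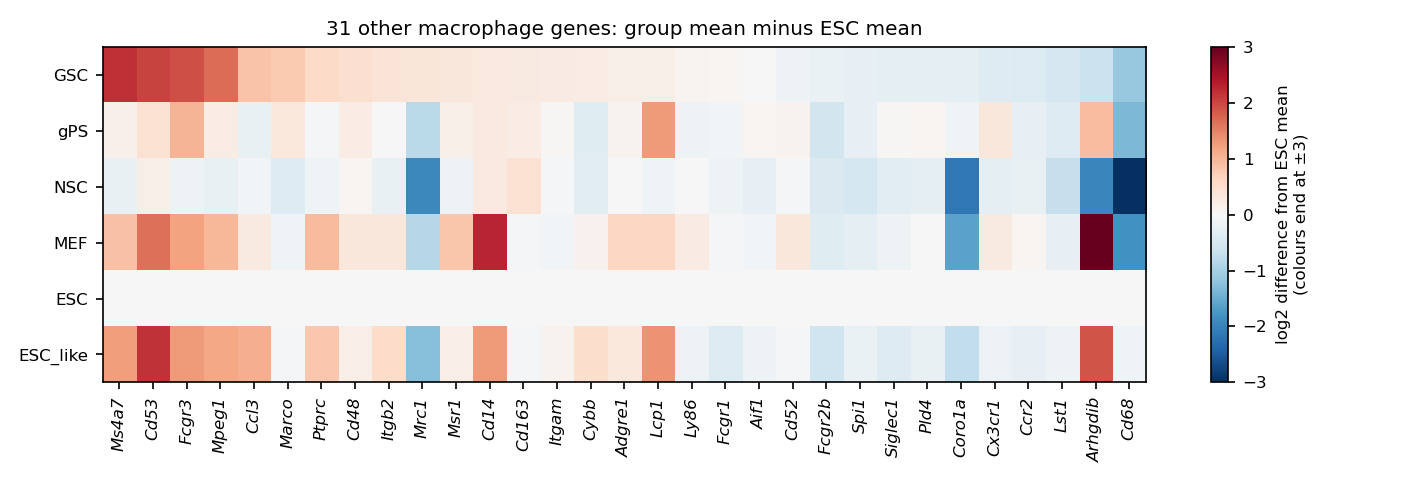
Group mean minus ESC mean, in log2 units, of the 31 other macrophage genes, ordered by the GSC difference; colours end at 3 in either direction. Ms4a7, Cd53, Fcgr3 and Mpeg1 are red in GSC and ESC_like, the columns of Itgam and Aif1 are pale throughout, and Cd68 is blue in GSC, gPS, NSC and MEF.

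Complement genes besides C1q passed in GSC about as often as other genes. Of the 14 measured, 2 were higher in GSC than in ESC (14.3%, against 13.1% of all genes) and none lower (10.2% of all genes). Serping1, the inhibitor of the C1 proteases, averaged 9.75 in GSC, 7.28 in MEF and 6.26 in ESC (GSC minus ESC 3.49, SE 0.26, limma adjusted p = 4.4e-10), and Cd93, a receptor once linked to C1q, averaged 5.60 against 3.92 (limma adjusted p = 2.6e-07). The protease gene C1ra was higher in MEF than in ESC (4.82 against 3.45, limma adjusted p = 6.5e-06), as was Masp1 of the lectin pathway (8.84 against 5.50, limma adjusted p = 6.1e-12). In MEF, 5 of the 14 were higher than in ESC and none lower (35.7% in either direction, against 23.4% of all genes). In ESC_like, Masp1 was the only one of the 14 above ESC (1.81, SE 0.20). In gPS against GSC, 3 fell (21.4%, against 10.9% of all genes), with Serping1 by 3.91 (SE 0.24, limma adjusted p = 1.3e-11).

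Lysosomal genes other than Ctss and Laptm5 moved in both directions. Of 18 measured, 5 were higher (27.8%) and 4 lower (22.2%) in GSC than in ESC, against 13.1% and 10.2% of all genes. The sphingolipid activator gene Psap (2.36, SE 0.20, limma adjusted p = 3.5e-09) and Lamp2 (1.64, SE 0.23) were higher, and Laptm4b, a relative of Laptm5 (-2.64, SE 0.14, limma adjusted p = 2.4e-12), and Ctsc (-1.95, SE 0.25) were lower. In MEF 8 of the 18 were higher (44.4%) and 2 lower (11.1%) than in ESC, led by Ctsk (3.96, SE 0.24) and Ctsh (3.40, SE 0.22). The other 8 of the 18 passed in neither direction, and of all genes 23.4% passed there, counting both directions. Psap was higher than in ESC in GSC, MEF, ESC_like and gPS, where the gPS difference was 1.19 (SE 0.18, limma adjusted p = 6.0e-05).

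Markers of other blood cells were looked at in the same way. Of 13 neutrophil genes, 2 were higher in GSC than in ESC (15.4%, against 13.1% of all genes), Prtn3 (8.07 against 4.79, limma adjusted p = 2.0e-12) and Mmp9 (6.12 against 4.96, limma adjusted p = 1.4e-08), and the other 11 did not pass. Of 12 lymphocyte genes, 0 passed in limma in GSC against ESC (4 at an unadjusted p under 0.05) and 0 in ESC_like against ESC (0 at an unadjusted p under 0.05). Of 7 mast cell genes 0 passed in GSC against ESC (1 at an unadjusted p under 0.05). Of 7 further lysozyme-like genes 0 passed in GSC against ESC (1 at an unadjusted p under 0.05). The platelet gene Ppbp was high in MEF (8.71 against 3.45 in ESC, limma adjusted p = 4.0e-16), as was Pf4 (6.07 against 5.06). Both were among the 10 erythroid and megakaryocyte genes, of which 2 passed there as higher and none as lower (20% in either direction, against 23.4% of all genes). That 23.4% also counts genes lower in MEF. With arrays left out singly, 2224 to 2307 of the 18193 genes were higher in MEF. Fibroblast genes were higher than in ESC for 17 of 17 in MEF (23.4% of all genes passed in either direction) and 14 of 17 in ESC_like (5.11% of all genes were higher). They were higher for 13 of 17 in gPS (2.36% of all genes) and 11 of 17 in GSC (13.1%). The part of these cell types in the levels of the 10 genes was not tested.

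Across the 20 arrays 8 of the genes varied together, and Csf1r and Laptm5 stood aside; these correlations describe arrays that share groups, and the split was made after the values were seen. Among Lyz1, Lyz2, C1qa, C1qb, C1qc, Tyrobp, Ctss and Fcer1g the 28 pairs correlated at 0.73 to 0.98, with a median of 0.89. After the group means were taken out, the same 28 pairs ran from 0.20 to 0.95 with a median of 0.62, to which gPS replicate 2 belongs. Csf1r correlated with the 8 at 0.28 to 0.74 and Laptm5 at 0.06 to 0.18.

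The genes outside the set that were most like the mean of the 10 over the 20 arrays were Plek (r = 0.95), Gpnmb (0.95), Ms4a7 (0.95), Cd53 (0.94), Mpeg1 (0.93), Sphk1 (0.93), Itgb2 (0.91), Psmb8 (0.90), Gbp2 (0.90) and Hsp90b1 (0.89). Gpnmb, a glycoprotein of phagocytes and pigment cells, averaged 9.30 in GSC, 8.13 in ESC_like, 7.57 in MEF, 6.65 in gPS, 5.66 in ESC and 5.06 in NSC. Gbp2, a GTPase induced by interferon, had a wider span, from 9.46 in GSC and 8.24 in ESC_like to 3.80 in ESC and 3.66 in NSC. After the group means were taken out, the closest were Mgp (r = 0.95), Mir1931 (0.95), Col3a1 (0.94), Ubd (0.93) and Phgdh (0.93), of which Mgp and Col3a1 are genes of the connective tissue matrix. These deviations include gPS replicate 2, which lay 3.85 above the mean of the other gPS arrays for Lyz1 and 3.03 for Lyz2. How far that single array set these correlations was not tested. The genes closest to Csf1r were Rnft1 (r = 0.95), Dram1, Cavin1, Mndal and Adgrg2 (each 0.94), and Cavin1, a coat protein of caveolae, averaged 10.25 in MEF and 6.15 to 7.83 elsewhere. The genes closest to Lyz2 were Plek, Gpnmb, Cd53, Ms4a7 and Gbp2, at 0.92 to 0.96.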

How the data were processed

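The authors deposited 1 log2 intensity for each probe set and array, summarised with RMA, per the submitters' processing notes; whether all 20 arrays were processed together, and the version, are not given in the sources used here. RMA fits probe effects over arrays and compresses low intensities, so folds of dim genes are understated. From the 45101 probe sets, 64 controls were left out. GEO's platform annotation named 34945 with 1 symbol, 932 with several and 9160 with none, and 34741 symbols were updated through the gene identifier with RefSeq's table on GRCm38.p6. Each gene was represented by its probe set with the highest mean (18193 genes, 9010 with several).

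Groups came from the labels. One fit with limma 3.58.1 (R 4.3.3) over all 6 groups gave each difference. Its SE came from 1 spread per gene, pooled over the groups. Adjustment was by Benjamini-Hochberg over all genes, and genes were called at an adjusted p under 0.05 and at least 2-fold. The fit was tested on simulated data: of 50 genes changed by 1 log2 unit among 18193 genes, 60% were called in GSC against ESC, 46% in MEF against ESC and 38% in gPS against ESC, and of 50 changed by 1.5 units 96%, 98% and 98%. A change of 1 unit equals the 2-fold threshold, so genes estimated under it were not called whatever their p-value. The members and gene lists were chosen with earlier results of these data known. GSC minus MEF and GSC minus ESC_like were added after values were seen. Named from each list were up to 6 called genes with the largest difference and up to 2 others with the smallest, and by likeness the 10 or 5 genes with the highest Pearson r; defining markers, neighbours, and Ptprc and the Lcp1 and Inpp5d patterns were named in addition, after their values were seen. Alternatives were other probe set rules, normalizations, variance settings, filters, thresholds, the replicate block and leaving out each array.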

Additional observations from a re-analysis of the deposited data

Results flagged for a closer look

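In groups of 4 to 10 arrays, here gPS alone, 51 values were checked for an array far from the rest. Chance sends about 1 in 20 groups past the limit, and over all genes 7.00% passed it. Of the 51 values 2 passed, a smaller share than over all genes, so nothing is read from them. Both were C1qb probe sets, and Lyz1, Lyz2 and Ctss did not pass. C1qb 1417063_at read 5.33 in gPS replicate 2 against 3.79 to 4.06 in the other 4 gPS arrays. C1qb 1437726_x_at read 4.33 in the same array against 2.86 to 3.14. Both values belong to the array that was also highest for Lyz1, Lyz2 and 15 of 17 fibroblast genes, and the part of fibroblast RNA in them was not tested.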

How the results depend on the processing

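The count of other macrophage genes called moved by over 1.5 times under these settings. With at least 1.5-fold in place of 2-fold it was 12 in MEF minus ESC (from 6), 8 in MEF minus gPS (from 4), 11 in gPS minus GSC (from 7), 5 in gPS minus ESC (from 3), 10 in gPS minus ESC_like (from 4), 8 in GSC minus ESC (from 5), 11 in GSC minus MEF (from 5) and 8 in GSC minus ESC_like (from 4). With all probe sets of a gene averaged it was 6 in MEF minus NSC (from 10), 2 in gPS minus ESC_like and 3 in GSC minus MEF. With dim genes left out, which leaves fewer genes to call, it was 4 in gPS minus GSC and 2 in gPS minus ESC_like. With arrays left out singly it ran from 1 to 3 in gPS minus ESC, with 1 reached without ESC replicate 1, and from 4 to 7 in gPS minus ESC_like. With the replicate block it was 1 in gPS minus ESC; the replicate numbers did not pair the samples, since 7 of 45 same-numbered pairs had a correlation of deviations over 0.1 (-0.17 to 0.27), and the block moved no other of these counts by that much.

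Directions reversed when probe sets with a shared suffix were left out, which replaces the probe set read. Lyz1 then gave -0.026 in MEF minus NSC, -0.15 in MEF minus gPS and 0.070 in gPS minus ESC_like. Laptm5 gave 0.13 in MEF minus ESC, 0.25 in MEF minus gPS, -0.26 in GSC minus MEF and 0.45 in GSC minus ESC_like, Ptprc -0.14 in MEF minus NSC and Coro1a 0.047 in MEF minus ESC. Dim signals limit the rest, since no detection call was used.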
